A study of Homo sapiens and Mus musculus with 14 samples.

Results

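Epithelial-mesenchymal transition is the programme by which sheet-forming epithelial cells loosen their junctions and take on a migratory, mesenchymal state. The 10 genes examined here were its transcription factors SNAI1, SNAI2, TWIST1, ZEB1 and ZEB2, the receptor kinase AXL, the filament protein gene VIM and the cadherin genes CDH1, CDH2 and CDH11. Their ATAC-seq peaks were taken from the gene body and 50 kb on each side. ATAC-seq marks accessible DNA by where a transposase inserts. These windows held 31 of 39537 peaks in SMARCAL1 knockout clone 1, 36 of 34572 in SMARCAL1 knockout clone 2 and 58 of 64806 in control cells. The cells were MDA-MB-436, an established human breast adenocarcinoma line, and SMARCAL1 is an enzyme that anneals DNA strands and reshapes stalled replication forks.

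Clone 1 comprised 3 libraries of batch 1 with the genotype SMARCAL1 knockout. Clone 2 comprised 2 libraries of batch 2 with the same genotype, and the control comprised 3 libraries of batch 1. Each knockout group is a single clone, so the knockout and any other difference of that clone cannot be told apart, and for clone 2 the clone and the batch cannot be told apart either. The authors merged the replicates of each group into 1 peak list, so no comparison has a replicate check and no p-value is given. Intervals are exact binomial 95% intervals and cover counting error only. Peaks within 1 kb of either annotated end of a gene are called gene-end peaks. A site was called found in a second list if the peaks of both lists shared at least 1 bp. The score of a peak is the authors' and was read from its values as a −log10 p. Because scores move with sequencing depth and caller settings, they are given list by list and not compared between lists.

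The transcription factors of this programme repress epithelial genes, CDH1 above all. SNAI1, SNAI2, ZEB1 and ZEB2 are zinc finger proteins that bind E-boxes of the form CAGGTG, which the opposite strand reads as CACCTG, and TWIST1 is a basic helix-loop-helix factor that also binds E-boxes. CDH1 encodes E-cadherin, the adhesion molecule of epithelial junctions. CDH2 (N-cadherin) and CDH11 are cadherins of mesenchymal cells, VIM encodes the intermediate filament vimentin, and AXL is a receptor for the ligand GAS6 that is commonly found on mesenchymal-like carcinoma cells. In the deposited lists, the gene ends of SNAI2, TWIST1, VIM and CDH2 carried a peak in all 3 groups. SNAI1, AXL and CDH11 carried one in control cells alone, and ZEB1 carried one in control cells and clone 1. CDH1 carried one in clone 1 alone, 205 bp wide with a score of 6.24. ZEB2 carried none in any list. Across all genes, 15.9% of those marked in control cells were marked in neither clone. Of those unmarked in control cells, 5.89% were marked in clone 1. Whether the SNAI1 and CDH1 differences are linked was not tested.

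The 250 bases before annotated transcription starts are shown for VIM, ZEB1, ZEB2 and AXL, from RefSeq on GRCh38.p14, with each such E-box, on either strand, in capitals. VIM is shown because a gene-end peak was present at its start in every list, ZEB1 because its single control peak lies among its alternative starts, and ZEB2 and AXL because their first start carried no peak in any list. Each line gives the strand of the gene, and sequences read 5′ to 3′ along it.
VIM, chr10:17227991-17228240, plus strand: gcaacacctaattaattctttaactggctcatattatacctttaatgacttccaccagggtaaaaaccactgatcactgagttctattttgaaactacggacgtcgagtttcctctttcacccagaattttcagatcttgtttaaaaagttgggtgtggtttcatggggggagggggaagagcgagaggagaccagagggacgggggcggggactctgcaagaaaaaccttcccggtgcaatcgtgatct
ZEB1, chr10:31318167-31318416, plus strand, start at 31318417: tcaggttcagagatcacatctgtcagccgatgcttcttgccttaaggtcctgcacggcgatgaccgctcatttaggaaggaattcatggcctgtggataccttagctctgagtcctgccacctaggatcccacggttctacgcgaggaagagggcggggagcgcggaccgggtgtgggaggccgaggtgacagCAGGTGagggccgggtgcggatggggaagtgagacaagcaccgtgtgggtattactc
ZEB1, chr10:31318966-31319215, plus strand, start at 31319216: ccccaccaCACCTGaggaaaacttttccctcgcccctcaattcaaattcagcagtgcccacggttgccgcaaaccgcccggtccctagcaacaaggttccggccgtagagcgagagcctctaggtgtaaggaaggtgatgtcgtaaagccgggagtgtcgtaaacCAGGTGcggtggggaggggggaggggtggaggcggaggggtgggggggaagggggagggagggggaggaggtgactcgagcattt
ZEB2, chr2:144520120-144520369, minus strand: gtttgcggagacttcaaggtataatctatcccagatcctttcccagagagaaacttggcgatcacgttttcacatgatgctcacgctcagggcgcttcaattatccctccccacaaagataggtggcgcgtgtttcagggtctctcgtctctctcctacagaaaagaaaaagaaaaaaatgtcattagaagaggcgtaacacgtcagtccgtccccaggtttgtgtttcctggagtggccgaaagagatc
AXL, chr19:41218973-41219222, plus strand, start at 41219223: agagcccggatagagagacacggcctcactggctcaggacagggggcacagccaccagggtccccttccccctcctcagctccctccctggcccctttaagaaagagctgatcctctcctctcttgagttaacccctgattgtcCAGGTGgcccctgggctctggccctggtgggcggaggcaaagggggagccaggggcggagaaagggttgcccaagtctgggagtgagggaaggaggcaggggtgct
AXL, chr19:41226505-41226754, plus strand, start at 41226755: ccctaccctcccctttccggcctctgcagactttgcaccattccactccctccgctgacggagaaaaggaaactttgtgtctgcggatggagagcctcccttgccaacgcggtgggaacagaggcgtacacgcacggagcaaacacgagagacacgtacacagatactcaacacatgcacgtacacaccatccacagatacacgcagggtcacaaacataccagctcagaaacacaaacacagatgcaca

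The letters CAGGTG or CACCTG occurred once before the AXL first start, 106 bases upstream. They occurred once before the ZEB1 start at 31318417, 57 bases upstream, and at 242 and 85 bases before the ZEB1 start at 31319216. RefSeq promoter windows were available for 5 of the genes, those shown and CDH2. Of their 13 windows, 3 held at least 1 match and 1 held at least 2. Over all 35116 windows of the same length, 17.5% held at least 1 and 2.53% at least 2. The AP-1 letters TGANTCA, searched likewise (they read the same on both strands), occurred in 1 of the 13 windows, before a second CDH2 start, and in 6.57% of all windows. A match describes these letters only and is not evidence of binding. Neither CAGGTG nor CACCTG was found before VIM, the first CDH2 start, ZEB2 or the second AXL start. The wider E-box form CANNTG occurred in 8 of the 13 windows, among them those of ZEB2 and the second AXL start, against 61.8% of all windows.

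Over the 10 windows together, 35 of the 58 control peaks (60.3%, 46.6 to 73.0) had no overlapping peak in clone 1, against 57.9% of all control peaks. In clone 2, 28 (48.3%, 35.0 to 61.8) had none, against 57.1% of all. Of the 58, 24 (41.4%, 28.6 to 55.1) had none in either clone, against 46.7% of all, and 19 were found in both, against 31.7% of all. The 3 intervals each include the share over the whole list. Weighting the whole list to the score deciles of the 58 peaks gave 57.4%, 56.9% and 46.9% for absence in clone 1, in clone 2 and in both. Over the 10 windows as a whole these shares thus lay within counting error of the background. Among the 44 control peaks farther than 1 kb from every protein-coding gene end, 65.9% (50.1 to 79.5) were absent in clone 1, against 64.7% of all such peaks. In clone 2, 45.5% (30.4 to 61.2) were absent, against 61.9% of all such peaks, which lies outside the interval. Absence in both clones was 43.2% (28.3 to 59.0), against 52.3%. These subset shares were not weighted by score decile, and their intervals treat neighbouring peaks of a window as independent. Absence in clone 2 varied by window. Counting all control peaks, it ran from 1 of 7 at ZEB2, 2 of 7 at CDH11 and 5 of 14 at CDH2 to 4 of 5 at CDH1 and 3 of 3 at SNAI1.

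**Figure D1:**
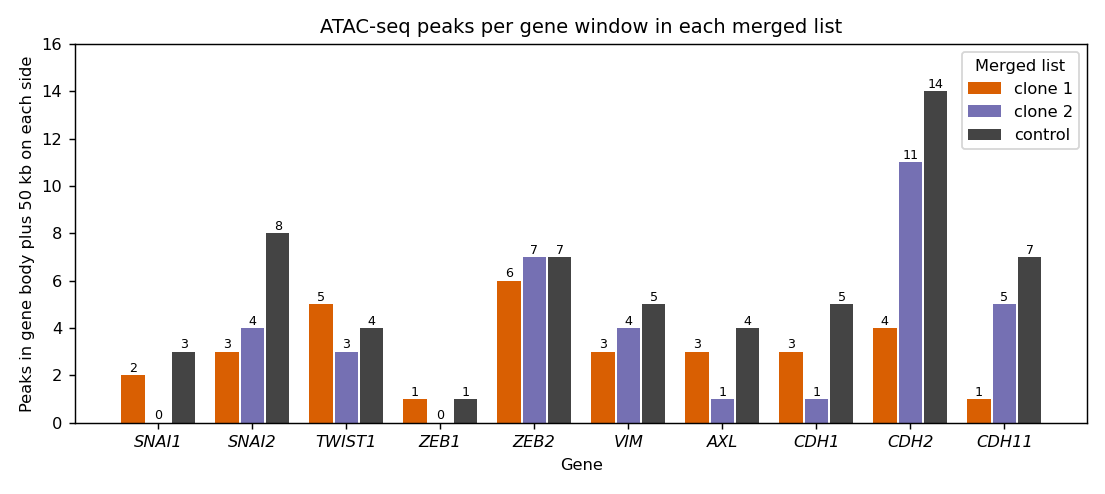
Number of ATAC-seq peaks (vertical axis) in the window of each gene (horizontal axis) in the merged lists of clone 1, clone 2 and control, 1 bar per list. The CDH2 window, the longest at 344 kb, holds the most peaks in clone 2 (11) and control (14), and the ZEB1 window the fewest in control (1).

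In the opposite direction, 6 of the 31 clone 1 peaks (19.4%, 7.45 to 37.5) overlapped no control peak, against 30.7% of all clone 1 peaks. All 36 clone 2 peaks overlapped a control peak. For 0 in 36 the interval ran up to 9.74%, and 11.1% of all clone 2 peaks had no control counterpart. With lists of equal length 9 of 36 clone 2 peaks (25%) lacked a control peak, against 23.3% of all. The 6 clone 1 peaks were 2 in CDH1, 2 beside TWIST1, 1 beside SNAI1 and 1 beside SNAI2, with scores from 5.04 to 6.24 against a list median of 6.07. No region was present in both clones and absent in control.

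Control peaks that were found in the clones were mostly stronger and wider than those that were not, with overlapping ranges. The 19 control sites shared by all lists had a median score of 10.5 and a median width of 922 bp, and the 24 found in neither had 5.59 and 257 bp. Over the whole control list these medians were 10.3 and 716 bp for peaks found in both and 5.50 and 255 bp for peaks found in neither. Above the list median score, 17 of 26 peaks in the windows were found in both clones, against 58.0% of all such peaks. At or below it, 2 of 32 were, against 5.42%. Of the 24 peaks found in neither clone, 8 had a score that was recognisably a mean over several merged peaks, against 18.3% of all control peaks found in neither. The digits of a score do not show whether the merged peaks came from different replicates.

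**Figure D2:**
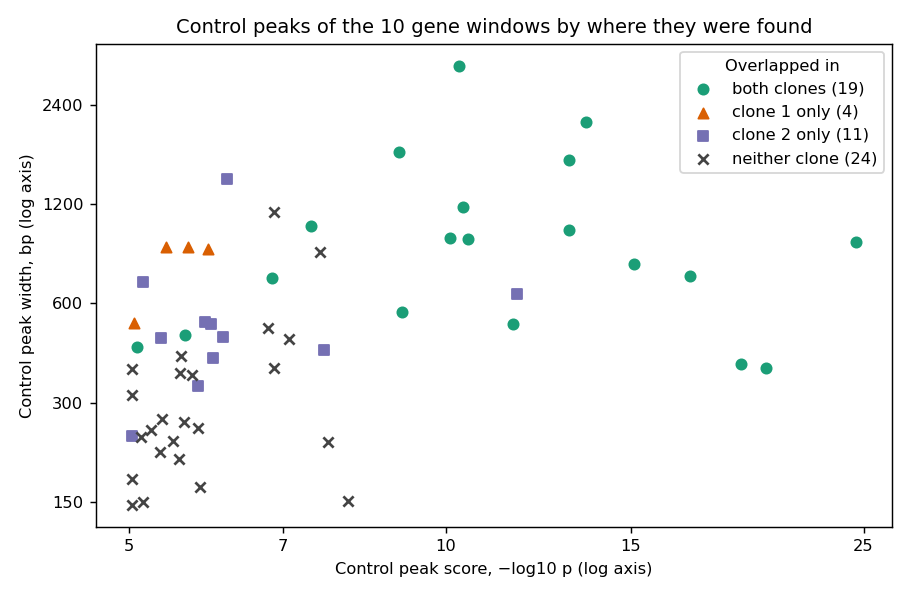
Score (horizontal, −log10 p, log axis) and width (vertical, bp, log axis) of the 58 control peaks in the 10 windows, 1 point per peak, by the clones that overlapped it. All peaks with a score above 12 were overlapped in both clones, while the 24 overlapped in neither (crosses) score at most 8.07.

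At gene ends, 6 of the 10 genes had a peak in clone 1, 4 in clone 2 and 8 in control, against 50.2%, 43.0% and 60.7% of all 20033 protein-coding genes. Control cells had such a peak at 8 of the 10 genes, and 3 of these lacked it in clone 1 (SNAI1, AXL and CDH11), against 21.1% over 12166 genes. In clone 2, 4 had none (the same genes and ZEB1), against 30.1%, and 3 lacked it in each of the clones, against 15.9%. The other 4 kept it in both clones, against 64.7%. At the score deciles of the 8 genes the shares over all genes were 30.0%, 40.6% and 24.1%. The genes without a peak in clone 2 had control scores of 5.05 to 7.59, and the genes with one had 9.02 to 13.6, so these few genes did not overlap in control score. In clone 1 the groups did overlap. There the genes without a peak had control scores of 5.35 to 7.59, and the genes with one had 5.05 (ZEB1) to 13.6 (TWIST1).

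**Figure D3:**
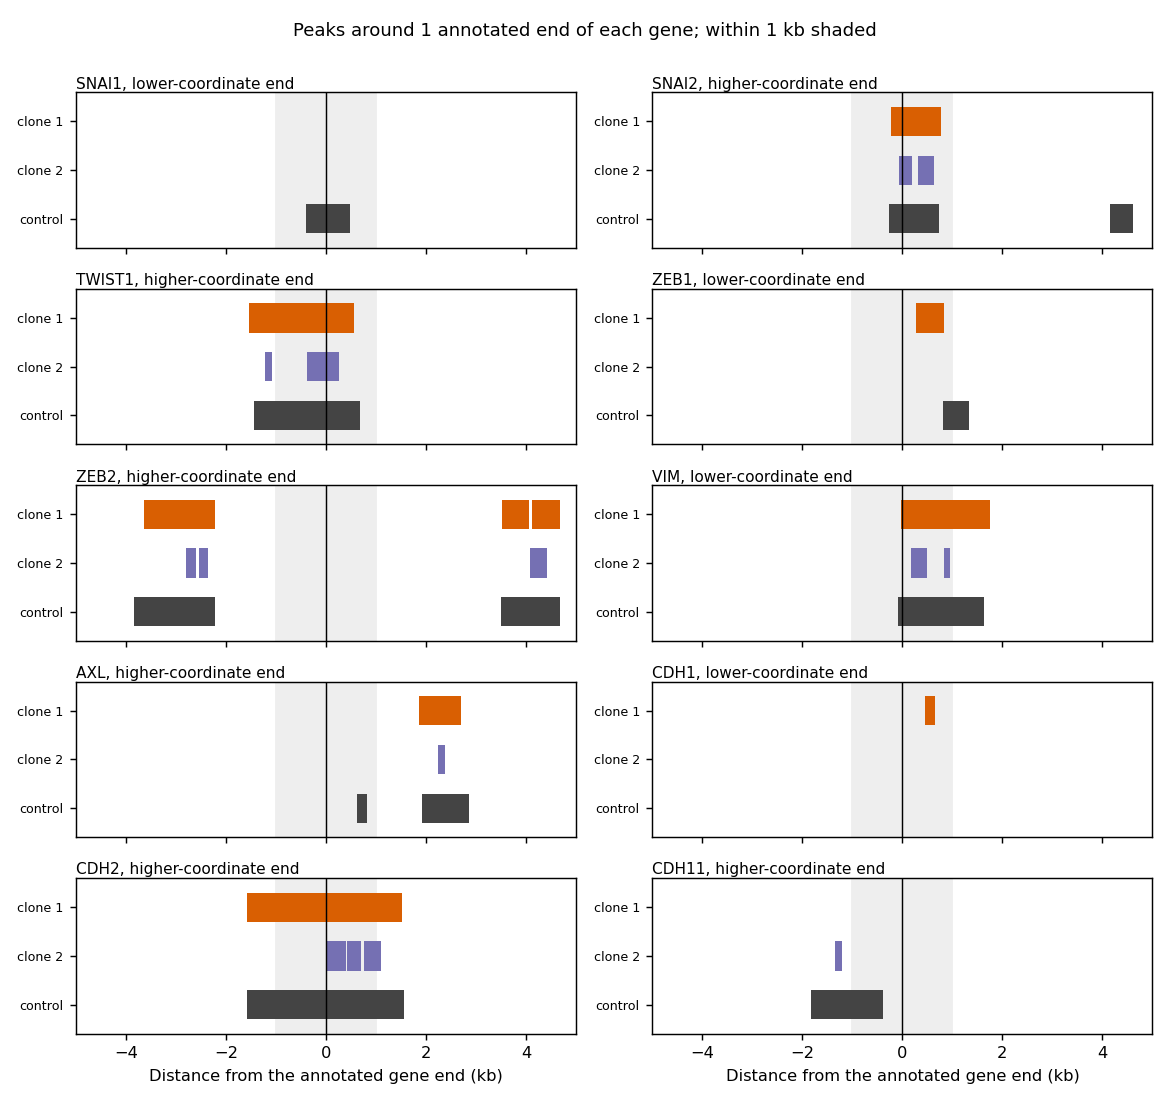
Peaks as bars along the distance (kb) from 1 annotated end of each gene, in rows for clone 1, clone 2 and control, with the gene-end zone of 1 kb on each side shaded. SNAI2, TWIST1, VIM and CDH2 have peaks in the zone in all rows, SNAI1, AXL and CDH11 in the control row alone and CDH1 in the clone 1 row alone.

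SNAI1 (chr20:49982980-49988886, hg38), which encodes the repressor Snail, had no gene-end peak in clone 1 or clone 2. Its control peak lay across the lower-coordinate end (chr20:49982585-49983446), was 862 bp wide and scored 7.59, a mean over merged peaks. Control gene-end peaks in that score decile were found at 68.1% in clone 1 and 56.7% in clone 2. The whole SNAI1 window held 2 peaks in clone 1, none in clone 2 and 3 in control. The second control peak that neither clone had lay 26.8 kb beyond the gene, with a score of 8.07, the highest among all window peaks found in neither clone. The remaining control peak lay at the end of the neighbour RNF114 and was found in clone 1.

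SNAI2 (chr8:48917598-48921429), which encodes the repressor Slug, kept its gene-end peak in both clones. The peak at its higher-coordinate end scored 8.25 in clone 1, 12.7 and 13.5 for the pair of pieces in clone 2, and 13.1 in control. A peak 25.7 kb below the gene was also in all lists, at 6.41, 11.4 and 11.6 in clone 1, clone 2 and control. The window had 3 peaks in clone 1, 4 in clone 2 and 8 in control. Of these 8, 5 were found in neither clone, and 4 of the 5 scored under 6, close to the lowest score of the list (5.00). The exception, 4.15 kb above the gene, scored 7.10, a mean over merged peaks.

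TWIST1 (chr7:19113047-19117636) likewise had its gene-end peak in all lists. It was 2099 bp wide with a score of 8.47 in clone 1 and 2130 bp wide with a score of 13.6 in control. In clone 2 it was present as a 640 bp peak scoring 14.2 and a 143 bp peak scoring 11.6, and the 143 bp peak lay 1.07 kb inside the gene end. A distal site 33.6 kb below the gene was found in all lists although it was weak in control, where it scored 5.08; it scored 5.27 in clone 1 and 11.7 in clone 2. The window had 5 peaks in clone 1, 3 in clone 2 and 4 in control, the only window with more peaks in clone 1 than in control. A site at FERD3L, a neighbouring basic helix-loop-helix gene, was in clone 1 and control.

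ZEB1 (chr10:31318417-31529804), a repressor of CDH1 and of other epithelial genes, had a nearly empty window. Over 311 kb it held 1 peak in clone 1, none in clone 2 and 1 in control, or 0.321 peaks per 100 kb in control, the lowest density of the 10 windows. The clone 1 peak (chr10:31318682-31319238) scored 5.92 and the control peak (chr10:31319221-31319743) scored 5.05, and they overlapped by 3.44% of the control peak. The clone 1 peak covered all 250 bases before the start at 31319216, with both E-boxes shown above, and the control peak began 5 bp past that start. The 2 peaks thus shared only 18 bp.

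ZEB2 (chr2:144384081-144520119), the second ZEB repressor, had the largest share of control sites present in both clones among the 10 genes. Its window held 6 peaks in clone 1, 7 in clone 2 and 7 in control, and 5 of the 7 control sites were in both clones. The site with the highest control score, 25.7 kb below the gene, scored 8.07 in clone 1, 11.5 in clone 2 and 20.2 in control. A site inside the gene (chr2:144414231-144415018 in control) scored 10.8, 18.4 and 15.1 in the same order. No list had a peak within 1 kb of either end. The nearest peaks lay on both sides of the transcription start, from 2.22 kb inside the gene in control and from 3.50 kb upstream of it. Both of these sites were in all lists.

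The window of AXL (chr19:41219223-41261766) held 3 peaks in clone 1, 1 in clone 2 and 4 in control. Its gene-end peak, in control alone, was at the transcript end, 608 bp beyond the last base, with a width of 212 bp and a score of 5.35. It lies at the end of the adjoining gene HNRNPUL1, which encodes a nuclear RNA-binding protein, so it does not mark the start of AXL. The peak inside AXL (chr19:41225501-41226393 in control) ended 362 bp before the second start. It scored 5.01 for each of its pieces in clone 1, was absent in clone 2 and scored 5.69 in control. The strongest site of the window, 1.91 kb beyond AXL and inside HNRNPUL1, was in all lists at 5.58, 8.41 and 10.1 in clone 1, clone 2 and control. The strongest control peak of the window found in neither clone scored 6.87 and lay at the end of CCDC97, 48.3 kb beyond AXL.

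VIM (chr10:17228241-17237593) had a start-site peak in all lists, broad in clone 1 and control. It was 1787 bp wide with a score of 7.95 in clone 1 and 1731 bp wide with a score of 9.02 in control, while clone 2 had pieces of 305 and 122 bp scoring 12 and 9.13. Of the 250 bases printed, the peaks covered the last 35 in clone 1, none in clone 2 and the last 97 in control. A site 11.6 kb upstream of VIM scored only 5.65 in control and was in both clones, at 6.91 in clone 1 and 9.82 in clone 2. Another, at the end of the neighbour TRDMT1, was in all lists at 6.83, 10.3 and 10.5 in clone 1, clone 2 and control. The window had 3 peaks in clone 1, 4 in clone 2 and 5 in control. Of the 5 control sites, 2 were in neither clone, with scores of 6.78 and 5.03.

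CDH1 (chr16:68737292-68835537) had no gene-end peak in clone 2 or control. Clone 1 had one (chr16:68737741-68737945), 205 bp wide and 449 bp inside the lower-coordinate end, with a score of 6.24; it lay 4.44 kb from the nearest control peak. Over the 7867 genes at which control cells lacked such a peak, it was present at 5.89% in clone 1, 1.54% in clone 2 and 0.559% in both. The 3 control peaks inside CDH1 were found in neither clone and scored 7.72, 5.13 and 5.81. Clone 1 had another peak in the gene body that control lacked, with a score of 6.07, and no peak inside CDH1 was shared between lists. The 1 control site of the CDH1 window found in both clones lay 29.3 kb below the gene, inside CDH3, the gene for P-cadherin.

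CDH2 (chr18:27932879-28177130) had 4 peaks in clone 1, 11 in clone 2 and 14 in control, the most of any window in clone 2 and control. Its window was also the longest, at 344 kb. Per 100 kb it held 3.20 peaks in clone 2 and 4.07 in control, fewer than the 3.85 and 7.70 of SNAI2. CDH2 had a broad start-site peak in clone 1 and control. That peak was 3096 bp wide in clone 1 and 3153 bp in control, with scores of 7.05 and 10.3, and covered all 250 bases before the start in both. Clone 2 had 3 narrow pieces there, scoring 12.8, 8.16 and 14.4, which together covered 233 of these bases. The strongest site of all windows lay 10.3 kb beyond the transcript end of CDH2 (chr18:27921704-27922625 in control), with scores of 12 in clone 1, 32.2 in clone 2 and 24.6 in control. A site in the gene body (chr18:28114885-28115612 in control) was in all lists at 9.40, 22.0 and 17.1.

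The 2 clones differed most at CDH2 and CDH11. Of the 14 control sites of CDH2, 4 were found in clone 1 and 9 in clone 2, and of the 7 control sites of CDH11, 1 was found in clone 1 and 5 in clone 2. The CDH2 sites in clone 2 and control alone included one in the gene body (chr18:27942452-27943090 in control) that scored 10.7 in clone 2 and 11.7 in control. That control score is the highest among window peaks absent in clone 1, and 88.8% of control peaks in its score decile were found in clone 1. These loci were picked after their counts were seen, clone and batch cannot be told apart for clone 2, and the difference between the clones was not tested.

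CDH11 (chr16:64943753-65123744), which encodes a cadherin of mesenchymal and bone-forming cells, had 1 site in all lists. This site in the gene body (chr16:65070776-65071167 in control) scored 11.2 in clone 1, 15.6 in clone 2 and 19.1 in control. The control peak near the higher-coordinate end of CDH11 was 1436 bp wide, scored 6.19 and was absent in clone 1. In clone 2 a 149 bp peak overlapped it but lay 1.20 kb from the gene end, so CDH11 counted as having no gene-end peak there. The remaining CDH11 sites in clone 2 scored from 9.15 to 10.3, where the list median was 11.0. Their control counterparts scored from 5.36 to 6.14, where the list median was 6.26. Within their own lists these sites stood at percentiles 27.2 to 42.2 in clone 2 and 24.2 to 47.7 in control. The site near the gene end stood at percentile 2.84 in clone 2 and 48.6 in control. The lists differ in length (34572 and 64806 peaks), so equal percentiles do not mean equal strength.

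**Figure D4:**
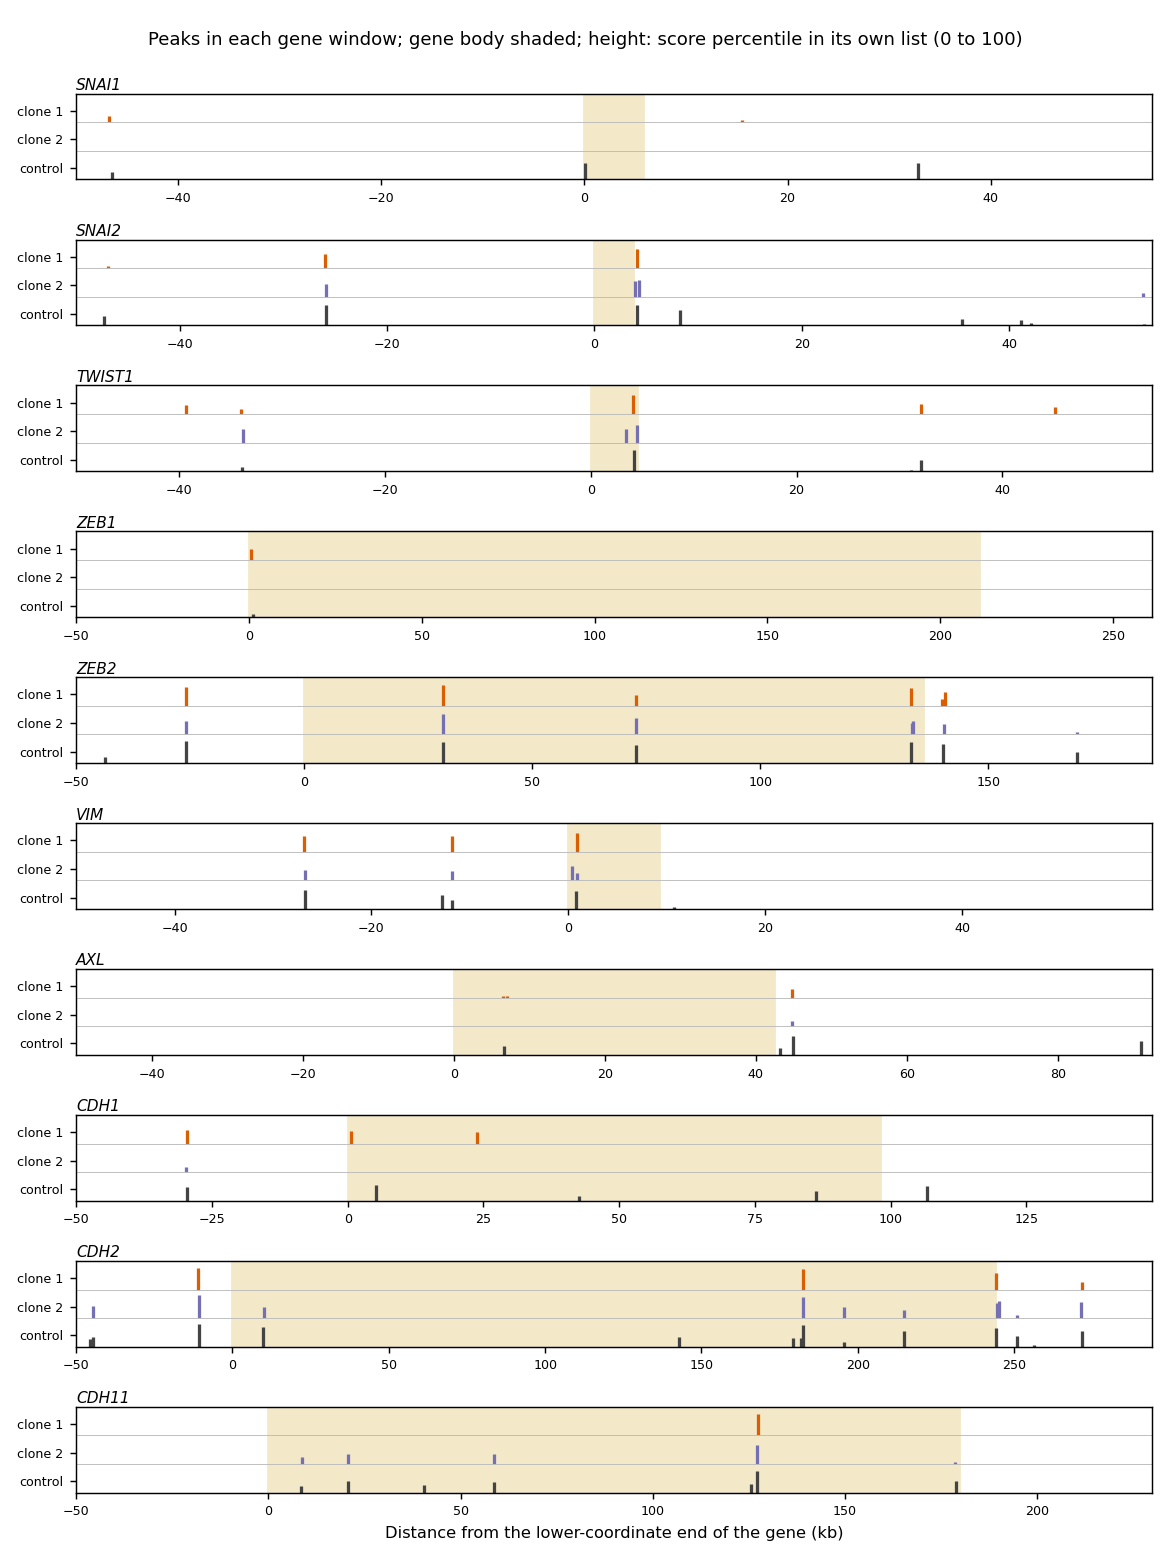
Peaks of each gene window along the distance (kb) from the lower-coordinate end of the gene, in rows for clone 1, clone 2 and control, with the gene body shaded. The height of a mark is the score percentile of the peak in its own list; ZEB2 shows 5 control sites repeated in both clones, and CDH11 shows 5 sites in clone 2 and 1 in clone 1.

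The same site was often narrower or in pieces in clone 2. Peaks in the windows had a median width of 557 bp in clone 1, 214 bp in clone 2 and 473 bp in control. Of the control peaks found in a clone, 2 of 23 were overlapped by more than 1 peak in clone 1 and 5 of 30 in clone 2. For the 19 sites in all lists, the median share of the control peak that was covered was 93.6% by clone 1 and 42.0% by clone 2, close to 84.8% and 40.9% over all 20546 such sites. Since the median width of the whole lists was 453 bp in clone 1, 200 bp in clone 2 and 399 bp in control, the narrow clone 2 peaks were not particular to these genes.

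Other genes of the programme were read at their gene ends in the lists given in the methods, chosen with earlier results known. Of 85 genes, 36 had a gene-end peak in clone 1, 29 in clone 2 and 52 in control, against 50.2%, 43.0% and 60.7% of all genes. Of the 52, 25 kept it in both clones, against 64.7% over all genes with a control gene-end peak. Another 16 (30.8%) lacked it in each clone, against 15.9% over all such genes. The control gene-end peaks of these 52 genes were weaker than usual, with a median score of 7.62 against 9.15 over all genes. At their score deciles the share over all genes was 24.7%, or 12.9 of 52, and with lists of equal length 3 of 35 had none in either clone, against 9.36% of all.

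Among 23 genes of mesenchymal products, 12 had a control gene-end peak, and 6 of these had none in either clone. The 6 were COL1A1 (a fibrillar collagen chain), MMP2 (a gelatinase), CD44 (the hyaluronan receptor), TAGLN (an actin-binding protein of smooth muscle), PDGFRB (a growth factor receptor) and S100A4 (a calcium-binding protein). Their control scores were 5.27 to 6.35. At the score deciles of the 12 genes the share over all genes was 31.9%, or 3.82 of 12. Peaks at FN1, ITGB1, TNC and LOX were among those kept in both clones. FN1, the gene for fibronectin, scored 7.32 in clone 1, 14.7 in clone 2 and 11.9 in control.

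TGF-beta is an inducer of the programme. Of 12 TGF-beta signalling genes, 10 had a control gene-end peak, 6 of these were kept in both clones and 1, the ligand gene TGFB3 with a control score of 8.32, was in neither. Over all genes with a control gene-end peak 64.7% were kept in both and 15.9% were in neither, and at the score deciles of these 10 genes 9.37% were in neither. TGFBR2, the type II receptor gene, scored 15.4 in clone 1, 19.4 in clone 2 and 18.4 in control at its stronger peak. TGFBR1, the type I receptor gene, had a peak of 12.3 in clone 1 and 12.8 in control and no gene-end peak in clone 2, although a clone 2 peak farther than 1 kb from the gene end overlapped the control peak. Of 4 genes of AXL-family receptors and their ligands, MERTK and PROS1 were kept in both clones, GAS6 was absent in clone 1 alone and TYRO3 was in neither clone, so 1 of 4 was in neither, against 26.8% of all genes at their score deciles.

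Of 24 epithelial genes, 10 had a gene-end peak in control, against 60.7% of all genes. The other 14 had none in any list, among them CLDN3, CLDN4 and CLDN7 (tight junction claudins), ESRP1 and ESRP2 (epithelial splicing factors) and GRHL2 (an epithelial transcription factor). Those with one in all lists included EPCAM, CLDN1, DSP, GRHL1 and KLF4, and OCLN, TJP3 and PKP3 had one in control alone with scores of 5.41 to 5.61. These were 3 of the 10 with a control gene-end peak, against 21.8% of all genes at their score deciles. None of these 24 genes, which do not include CDH1, had a gene-end peak in a clone and none in control. Of 12 further transcription factors of the programme, TWIST2 and SOX9 had a gene-end peak in all lists and FOXC2, GSC and KLF8 had one in control alone. These were 3 of the 9 with a control gene-end peak, against 38.5% at their score deciles. Among other cadherins and catenins, CDH4 and CTNNA1 had one in control alone, with the CDH4 peak overlapped by a more distant clone 1 peak. Those in control alone were 2 of the 7 with a control gene-end peak, against 19.6% at their score deciles. CDH3 and CDH13 had one in clone 1 alone, with scores of 5.11 and 6.18. So did the mesenchymal product gene ACTA2 (5.60) and the transcription factor gene TCF4 (5.27). More distant control and clone 2 peaks overlapped the TCF4 peak. Of the 85 list genes, 52 were marked in control, and 4 of the rest were marked in clone 1 and 0 in clone 2. Over the 7867 genes unmarked in control, these shares were 5.89% and 1.54%.

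**Figure D5:**
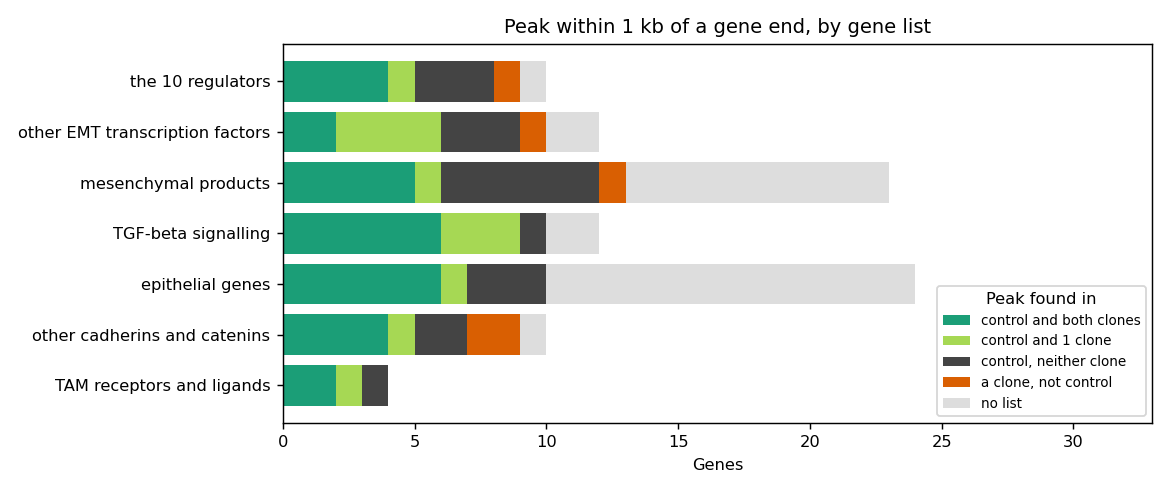
Number of genes (horizontal axis) in each list (vertical axis) by the merged lists in which a peak lay within 1 kb of a gene end. The dark segment counts genes with such a peak in control and in neither clone. These were 3 of the 8 regulators and 6 of the 12 mesenchymal product genes with a control gene-end peak, against 15.9% of all such genes. At their score deciles the shares over all genes were 24.1% and 31.9%.

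Gene-end peaks were also read at small lists of cell type markers. With so few genes per list, these counts cannot tell cell types apart. Over all genes, 50.2% had a gene-end peak in clone 1, 43.0% in clone 2 and 60.7% in control. Of 5 breast basal genes, EGFR had one in all lists and KRT17 in control alone; of 5 luminal genes, FOXA1 had one in all lists and KRT8 and KRT18 in control alone. The basal markers KRT5, KRT14 and TP63 and the luminal markers ESR1 and GATA3 had none. Among markers of other cell types, counts were 0 of 5 in clone 1, 2 of 5 in clone 2 and 1 of 5 in control for leukocytes, and 1 of 4 in each list for endothelial cells. They were 2 of 4 in each list for melanocytes, and 0 of 3, 0 of 3 and 1 of 3 for fibroblasts. A peak near a gene does not measure its expression. SMARCAL1 had a gene-end peak in all lists, with scores of 13.1 in clone 1, 13.5 in clone 2 and 16.7 in control, which does not check the knockout.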

How the data were processed

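ATAC-seq peaks of 8 MDA-MB-436 libraries were used; the 6 B16F10 libraries were not analysed here. Per the labels, the authors merged the replicates of each group into 1 list of peaks, each deposited with a chromosome, start, end and score. The submitters' processing notes name HISAT2, MACS2, ChIPseeker, hg38 and mm10; software versions, settings and depths were not given in the sources used here. These lists have no header. The authors deposited a score that was read as −log10 p, made by their peak caller and averaged over merged peaks, because frequent scores matched −log10 of Poisson tails at successive pileups over a constant background. The match ran over 9 steps in clone 1, 9 in clone 2 and 6 in control, with backgrounds of 1.91, 0.985 and 2.02. Means were recognised by more than 5 decimals in batch 1 or 6 significant digits in batch 2.

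Deposited starts were counted from 0 and are printed from 1. Gene positions and promoter sequences came from RefSeq GRCh38.p14, whose primary chromosomes have hg38 coordinates. All 10 genes and all 85 list genes matched by symbol, and 5 of the 10 had promoter windows. Python 3.11.15, pandas 2.3.3, NumPy 2.4.6, SciPy 1.17.1 and Matplotlib 3.10.9 were used, and overlap calls were tested on simulated data.

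The 10 genes, the gene lists and the alternatives were chosen with earlier results of these data known. All 10 genes are named. Their gene-end peaks, their strongest other peaks, the strongest control peaks found in both clones or in neither, and clone peaks absent in control are described, with exceptions. The strongest control peaks found in neither clone at TWIST1, ZEB2, CDH2 and CDH11, scoring from 5.03 to 5.84, are not described. List genes are named where control cells alone had a gene-end peak or both clones alone had one (none); the kept genes, those with a peak in 1 clone or in no list, the marker genes and the sites picked for the clones' difference were chosen after their values were seen. At the window limit, the nearest peaks were those of SNAI2 49.0 kb from the gene, scoring 7.69 in clone 2 and 5.03 in control, and the next outside were those of ZEB2, 50.9 kb away at 23.6 in clone 1 and 51.0 kb away at 37.2 in control. Some genes of the lists are not reported here by name.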

Additional observations from a re-analysis of the deposited data

How the results depend on the processing

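No paired analysis was possible because each list merges its replicates, and for the same reason no replicate could be left out. Over 8 results, 36 of 55 alternative values kept their call. Absence of control peaks in clone 1 (60.3%) was 39.3% with lists of equal length and 34.6% above the median score, against 38.1% and 32% over all peaks. Absence in clone 2 (48.3%) was 25% and 26.9% there, 86.2% with 50% of the peak covered and 32% among recognisable means, against 31.5%, 29.0%, 86.0% and 33.6%. Absence in both (41.4%) was 25%, 26.9% and 63.8% under the first 3, against 22.4%, 19.0% and 58.0%. Clone 1 peaks absent in control (19.4%) were 6.25% above the median score and 0% among means, against 11.6% and 5.12%, and clone 2 peaks (0%) were 25% with lists of equal length, against 23.3%. Genes with a control gene-end peak and none in clone 1 (3) were 0 with transcription starts alone, where 3 genes had a control peak, against 19.5% of all genes. Those with none in clone 2 (4) were 2 of 6 within 500 bp, 2 of 9 within 3 kb, 1 of 3 with starts alone and 2 of 6 with lists of equal length, against 31.0%, 30.7%, 27.8% and 2027 of 10153 genes. List genes in neither clone (16) were 10 of 34 with starts alone and 3 of 35 with lists of equal length, against 14.2% and 9.36%. Lists of equal length and higher scores drop weak peaks by construction. The other values stayed within the interval, or within 1.5 times the count; leaving out the CDH2 window, chosen after seeing the data, gave 56.8%, 52.3% and 43.2% for the absences.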
